A study of Mus musculus with 9 samples.

Results

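The genes described here are the 8 genes of protein folding, protein quality control and ubiquitin signalling named in the duplicated region of Dp1Tyb mice: *Usp25*, *Usp16*, *Ltn1*, *Ttc3*, *Cct8*, *Hspa13*, *Psmg1* and *Wrb*. They were chosen by their location, between *Lipi* and *Zbtb21* on chromosome 16, and by the function of their products, and not by their fold change. Earlier results of these data were known when they were chosen. The count table lists 43629 genes, 250 of them in the duplicated region, and all 8 were among the 89 genes of the region with enough reads to be tested. RNA was sequenced from 9 cultures of mouse embryonic fibroblasts (MEFs), each grown from 1 E14.5 embryo, 4 wild-type (WT) and 5 Dp1Tyb. Dp1Tyb embryos carry Dp(16Lipi-Zbtb21)1TybEmcf, a duplication that leaves cells with an extra copy of every gene in the region, and the WT embryos were their littermates. The name of the Dp1Tyb strain begins with C57BL/6J.129P2, and the authors give C57BL/6J as the background of all mice. No culture received a treatment beyond trypsin for passaging. The cells had been through 2 passages. The question for these genes was whether their transcripts followed the extra copy.

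Cells keep their proteins functional with chaperones that fold them, ligases that mark them with ubiquitin, proteases that take ubiquitin off again, and the proteasome, which degrades what has been marked. *Usp25* and *Usp16* encode deubiquitinases, and USP16 is known for removing ubiquitin from histone H2A. *Ltn1* encodes listerin, the ligase that marks unfinished chains on stalled ribosomes, and *Ttc3* encodes a RING-type ligase that acts on phosphorylated Akt. *Cct8* encodes the theta subunit of TRiC (also called CCT), the ring-shaped chaperonin that folds actin and tubulin. *Hspa13* encodes an Hsp70-type chaperone found in microsomes. *Psmg1* encodes a chaperone that pairs with the product of *Psmg2* to assemble the ring of alpha subunits of the proteasome. *Wrb* encodes a receptor subunit in the membrane of the endoplasmic reticulum (ER) that works with the product of *Caml* to insert tail-anchored proteins. Several of them act with partners encoded outside the duplicated region.

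The WT cultures had total counts of 25571442 to 30009361, and the Dp1Tyb cultures had 24804539 to 26782380. The sample names of WT replicate 1 and Dp1Tyb replicate 1 start with MEF1 and those of the other 7 cultures with MEF2. What these prefixes stand for is not stated, and the cultures that share one are called the first and the second set here. The fibroblast markers *Col1a1*, *Col1a2*, *Col3a1*, *Pdgfra*, *Pdgfrb*, *Thy1*, *Vim*, *Fn1*, *Postn* and *Dcn* were detected in every culture, and their summed level, as reads scaled to exon length and library size (RPKM), was 5870 to 7170 in WT and 5090 to 8340 in Dp1Tyb MEFs. Markers of other cells were detected too. The summed level of 5 Schwann cell or glial markers was 6.80 to 13.3 RPKM in WT and 2.41 to 6.65 RPKM in Dp1Tyb MEFs, with none of them at 0 throughout. The 4 of these markers that could be tested gave 3 with an unadjusted p below 0.05 and none with an adjusted p below 0.05 in edgeR, while DESeq2 called 2. The summed level of 6 skeletal muscle markers was 3.94 to 42.0 RPKM in WT and 9.93 to 153 RPKM in Dp1Tyb MEFs, although *Myod1*, *Myog* and *Ckm* had at most 3 counts in any culture. Of the 3 tested muscle markers, *Myh3* and *Des* had an unadjusted p below 0.05 in edgeR. None had an adjusted p below 0.05 in edgeR, and DESeq2 called 2. *Acta1* had the highest mean of the 6, 15.5 RPKM in WT and 33.5 RPKM in Dp1Tyb MEFs, at an unadjusted edgeR p of 0.405. Apart from Dp1Tyb replicate 2, at 153 RPKM, the muscle sums of Dp1Tyb cultures were 9.93 to 15.9 RPKM. Macrophage markers summed to 37.2 to 132 RPKM in WT and 9.50 to 187 RPKM in Dp1Tyb MEFs, and endothelial, epithelial and neuronal markers to at most 11.9 RPKM in any culture. The part of these cells in the results was not tested, and in bulk RNA a change in the share of a cell type cannot be told apart from a change in RNA per cell.

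The 8 genes are spread along the 22.4 Mb of the region, given here in GRCm38 coordinates of the GENCODE M21 annotation. *Hspa13* (ENSMUSG00000032932) is near the proximal end, on the minus strand of chromosome 16 from 75745431 to 75767104, and *Usp25* (ENSMUSG00000022867) follows on the plus strand from 77013706 to 77116780. *Ltn1* (ENSMUSG00000052299, minus strand, 87376651 to 87432612), *Usp16* (ENSMUSG00000025616, plus strand, 87454703 to 87483517) and *Cct8* (ENSMUSG00000025613, minus strand, 87483326 to 87495873) are neighbours in the middle of the region. The 3′ ends of *Usp16* and *Cct8* meet and share 192 bases of exon on opposite strands. These are 2.03% of the exon bases of *Usp16* and 6.22% of those of *Cct8*, and the strand setting of the counting is not stated, so reads from the shared stretch may not have been told apart. *Ttc3* (ENSMUSG00000040785) lies on the plus strand from 94370618 to 94469343 and shares 326 exon bases, 2.01% of its own, with *Pigp* on the opposite strand. *Psmg1* (ENSMUSG00000022913, minus strand, 95979933 to 95990960) and *Wrb* (ENSMUSG00000023147, plus strand, 96145407 to 96157852) are close to the distal end.

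The 4 genes among them that are compared with a named partner gene below were *Ltn1*, *Cct8*, *Psmg1* and *Wrb*, and the DNA that stands before each of them is shown to let their starts be compared. Each line holds 100 bases, 5′ to 3′ on the strand of the gene, from RefSeq's GRCm38.p6 promoter sequences. The bases lie outside all annotated exons and next to the start of the gene. For *Wrb* the window ends at 96145399, a few bases before the start given above, 96145407. Capitals mark letters that match a searched motif on either strand.
*Ltn1* (chr16:87432613-87432712, minus strand): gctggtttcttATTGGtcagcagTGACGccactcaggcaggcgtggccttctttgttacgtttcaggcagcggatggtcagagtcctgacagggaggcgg
*Cct8* (chr16:87495874-87495973, minus strand): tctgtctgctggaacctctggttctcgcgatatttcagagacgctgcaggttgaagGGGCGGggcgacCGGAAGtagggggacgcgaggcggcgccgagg
*Psmg1* (chr16:95990961-95991060, minus strand): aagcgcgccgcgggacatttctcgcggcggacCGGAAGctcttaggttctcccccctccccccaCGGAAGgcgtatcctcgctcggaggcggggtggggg
*Wrb* (chr16:96145300-96145399, plus strand): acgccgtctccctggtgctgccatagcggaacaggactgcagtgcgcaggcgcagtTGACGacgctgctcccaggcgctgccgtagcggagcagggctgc
The motifs searched were the GC box (GGGCGG), the CCAAT box (CCAAT), the core of ETS factor sites (CGGAAG), the E-box (CACGTG) and the CRE core (TGACG). No motif was found in all 4 windows. Over the whole 300-base promoter entries, which 7 of the 8 genes have, the ETS core was found in 5 against 16.9% of all 32851 entries, and the CRE core in 5 against 20.8%. The GC box was found in 2 of the 7 (35.7% of all entries), the CCAAT box in 2 (37.4%) and the E-box in 2 (7.15%). A match describes letters and not a bound site.

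Transcripts of the 8 genes were higher in Dp1Tyb than in WT MEFs, by between 1.33-fold and 1.63-fold, with a median of 1.53-fold (log2 fold change 0.62). By the quasi-likelihood test of edgeR, with p adjusted over the 14567 genes tested (Benjamini-Hochberg), 6 of the 8 had an adjusted p below 0.05, against 0.165% of all genes tested, all of them higher. These were *Usp25*, *Usp16*, *Ltn1*, *Hspa13*, *Psmg1* and *Wrb*, whereas *Cct8* and *Ttc3* did not pass. Among the 81 other tested genes of the duplicated region the same test called 16, or 19.8%, and their median was 1.49-fold (log2 fold change 0.57), while the median over all genes tested was a log2 fold change of 0.0027. For 7 of the 8 genes the lowest Dp1Tyb culture exceeded the highest WT culture, which held for 0.686% of all genes tested and for 48.1% of the other genes of the region. The 95% interval of the fold change included 1.5-fold, the ratio of 3 copies to 2, for all 8 genes, for 90.1% of the other genes of the region and for 23.0% of all genes tested. All 8 genes had an unadjusted p below 0.05 in edgeR, as did 3.13% of all genes tested and 52 of the 81 other genes of the region. DESeq2 called 7 of the 8 as higher, *Cct8* being the addition, and of the genes to which it gave an adjusted p it called 0.293% as higher and 0.415% in either direction. With the set as a covariate, edgeR called 4 of the 8, *Usp25*, *Ltn1*, *Usp16* and *Psmg1*. In that fit it called 18 other genes of the region and 24 genes in all. With the first set of cultures left out, edgeR called 0 of the 8 and 1 gene in all, while the median log2 fold change of the 8 was 0.60 and 437 genes had an unadjusted p below 0.05.

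**Figure D1:**
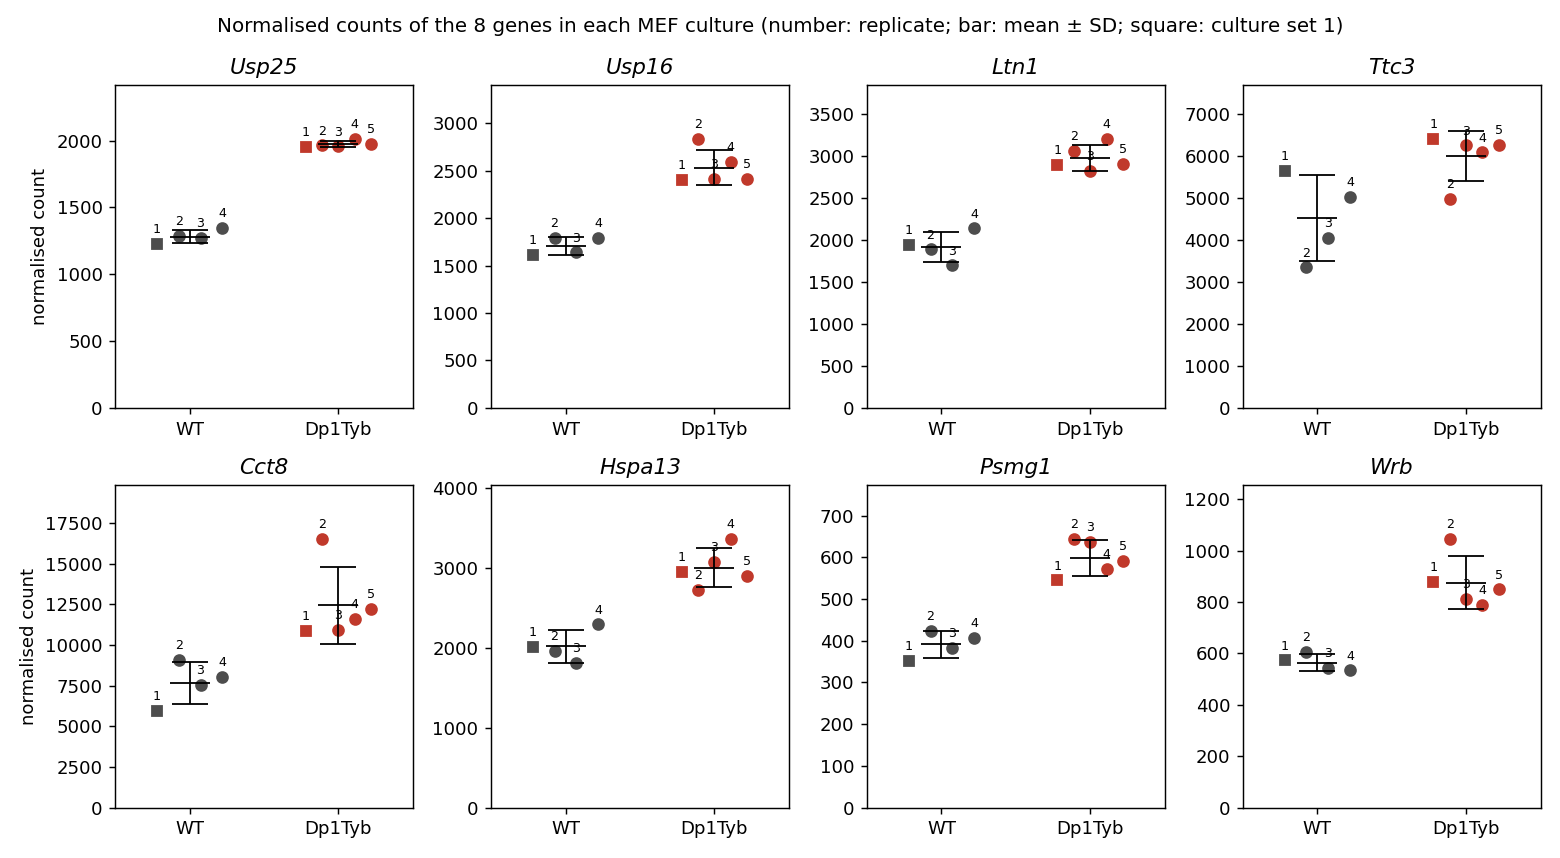
Normalised counts (y axis, from 0) of each of the 8 genes in the 4 WT and 5 Dp1Tyb MEF cultures. Points are cultures, numbers are replicates, squares are the first set of cultures, and bars are mean ± SD. Dp1Tyb and WT cultures overlap for *Ttc3* and for no other of the 8 genes.

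*Usp25* had the most even values of the 8. Its normalised counts were 1225, 1287, 1270 and 1344 in WT replicates 1 to 4 and 1956, 1964, 1957, 2014 and 1977 in Dp1Tyb replicates 1 to 5. The lowest Dp1Tyb culture was 1.46-fold above the highest WT culture. The means were 1282 ± 49.2 (SD, n = 4) and 1974 ± 24.2 (SD, n = 5), a coefficient of variation of 3.84% and 1.23%, against 2.46% expected from counting alone. The fold change was 1.54 (95% interval 1.42 to 1.67, log2 fold change 0.62, standard error 0.053, edgeR adjusted p = 0.0034). Leaving out any single culture kept the adjusted p below 0.05, at most 0.0373. It was 1.52-fold within the second set of cultures (two-sided exact permutation p = 0.0286, which 3 cultures against 4 cannot go below), and the pair of the first set differed by 0.68 on the log2 scale. Fits without 1 culture are also given for the genes below. Over these 9 fits edgeR called 2 to 26 genes in all, against 24 with every culture.

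*Usp16*, the second deubiquitinase, had 1616, 1792, 1640 and 1790 normalised counts in WT replicates 1 to 4. In Dp1Tyb replicates 1 to 5 it had 2409, 2838, 2412, 2596 and 2417. The groups did not overlap, and Dp1Tyb replicate 2 was the highest. Its fold change was 1.48 (95% interval 1.32 to 1.66, log2 fold change 0.57, standard error 0.073, edgeR adjusted p = 0.0183). It kept an adjusted p below 0.05 without Dp1Tyb replicate 1, 2 or 3 and lost it without any of the 4 WT cultures or Dp1Tyb replicate 4 or 5, with values up to 0.118. Of the related genes outside the region, *Usp45*, the closest relative of *Usp16*, had a log2 fold change of -0.04 (95% interval -0.22 to 0.15), and *Usp28*, the closest relative of *Usp25*, had -0.13 (95% interval -0.44 to 0.18).

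*Ltn1*, the ligase of ribosome-associated quality control, had 1943, 1888, 1698 and 2137 normalised counts in WT replicates 1 to 4. Its values in Dp1Tyb replicates 1 to 5 were 2894, 3059, 2820, 3206 and 2903. The groups were separate, with the lowest Dp1Tyb culture 1.32-fold above the highest WT culture. Expression was 1.55-fold that of WT (95% interval 1.38 to 1.75, log2 fold change 0.64, standard error 0.078, edgeR adjusted p = 0.0161). The adjusted p was above 0.05 without WT replicate 2 or 3 or Dp1Tyb replicate 4 or 5, at most 0.0742, and below it in the other 5 such fits.

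*Ttc3*, the other ligase, had the smallest fold change and the widest spread in WT. It had 5654, 3353, 4059 and 5043 normalised counts in WT replicates 1 to 4, a coefficient of variation of 22.6%. In Dp1Tyb replicates 1 to 5 it had 6420, 4976, 6263, 6096 and 6283. Replicate 2 was the lowest culture of both genotypes, and Dp1Tyb replicate 2 lay below WT replicates 1 and 4. Its fold change was 1.33 (95% interval 1.05 to 1.68, log2 fold change 0.41, standard error 0.15, adjusted p = 0.9997 in edgeR and 0.794 in DESeq2). For the difference between the means of this gene alone the exact permutation test over all relabelings, two-sided, gave p = 0.0317. Relative to WT the fold change was 1.14 between the cultures of the first set and 1.44 within the second set (exact permutation test, two-sided, p = 0.0857). Without WT replicate 1 the log2 fold change was 0.54, and without WT replicate 2 it was 0.29.

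*Cct8* was the most abundant of the 8 per length, at 93.6 ± 15.9 RPKM (SD, n = 4) for WT MEFs and 152 ± 28.9 RPKM (SD, n = 5) for Dp1Tyb MEFs. The other 7 lay between 4.88 RPKM (*Wrb*) and 11.2 RPKM (*Hspa13*) in WT. In WT replicates 1 to 4 *Cct8* had 5948, 9060, 7538 and 8008 normalised counts, and in Dp1Tyb replicates 1 to 5 it had 10852, 16536, 10943, 11597 and 12212. The groups did not overlap, but replicate 2 was the highest of each genotype, and Dp1Tyb replicate 2 stood well apart. Its fold change was 1.63 (95% interval 1.27 to 2.08, log2 fold change 0.70, standard error 0.16), with an adjusted p of 0.403 in edgeR and 0.0116 in DESeq2. The exact permutation test on its normalised counts gave p = 0.0079 (two-sided), which 4 cultures against 5 cannot go below. This p is unadjusted and was the same for each of the 7 genes without overlap. It was 1.82-fold higher in the first set and 1.55-fold within the second set (exact permutation test, two-sided, p = 0.0286).

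*Hspa13*, the microsomal chaperone, had 2013, 1960, 1809 and 2295 normalised counts in WT replicates 1 to 4. Dp1Tyb replicates 1 to 5 had 2955, 2725, 3080, 3370 and 2898. The groups did not overlap, and the lowest Dp1Tyb culture, replicate 2, was 1.19-fold above the highest WT culture. Relative to WT the fold change was 1.49 (95% interval 1.30 to 1.71, log2 fold change 0.57, standard error 0.088, edgeR adjusted p = 0.0476). Of the 9 fits that left out 1 culture, only that without Dp1Tyb replicate 2 kept the adjusted p below 0.05, at 0.0326, and it reached 0.224 in the others. With the set as a covariate the adjusted p was 0.0815.

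*Psmg1*, the proteasome assembly chaperone, had the fewest counts, between 375 and 637 reads per culture. Its normalised counts were 351, 423, 382 and 408 in WT replicates 1 to 4, and 544, 645, 637, 572 and 592 in Dp1Tyb replicates 1 to 5. The lowest Dp1Tyb culture was 1.29-fold above the highest WT culture. The fold change was 1.53 (95% interval 1.34 to 1.75, log2 fold change 0.61, standard error 0.086, edgeR adjusted p = 0.034). This call did not hold with any 1 of the 9 cultures left out, where the adjusted p was between 0.0504 and 0.199 and the log2 fold change between 0.57 and 0.65. The genes called in all also varied over these fits, from 2 to 26.

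*Wrb*, the receptor subunit for tail-anchored proteins, had 573, 605, 544 and 534 normalised counts in WT replicates 1 to 4. In Dp1Tyb replicates 1 to 5 the values were 880, 1048, 813, 791 and 849. Again no culture overlapped and Dp1Tyb replicate 2 was the highest. Relative to WT the fold change was 1.55 (95% interval 1.34 to 1.80, log2 fold change 0.64, standard error 0.093, edgeR adjusted p = 0.0395). Without Dp1Tyb replicate 2 the adjusted p was 0.0213, and in each of the other 8 fits without 1 culture it was above 0.05, at most 0.218. The adjusted p was 0.0659 with the set as a covariate.

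**Figure D2:**
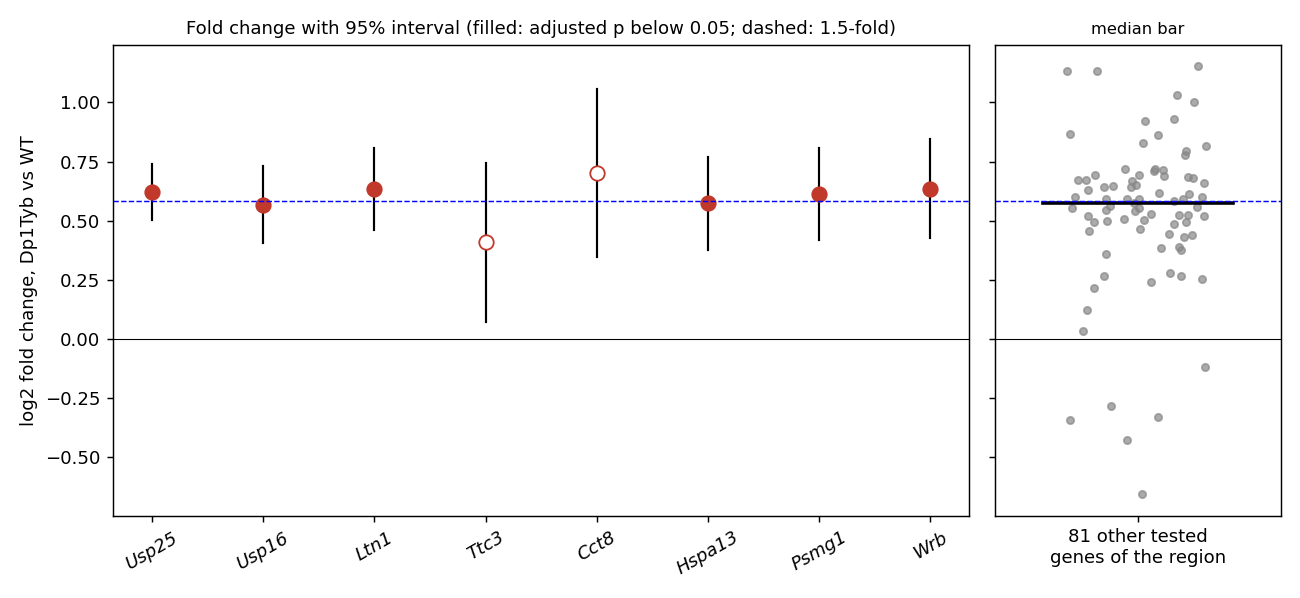
Log2 fold change of Dp1Tyb vs WT (y axis) for the 8 genes with its 95% interval (left, filled where the adjusted p was below 0.05) and for the 81 other tested genes of the duplicated region (right, 1 point per gene, bar at the median of 0.57). The dashed line is 1.5-fold, and the interval of each of the 8 genes crosses it.

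Compared with the rest of the region, the 8 genes ranked between 18 and 71 of 89 by fold change, *Cct8* being the highest and *Ttc3* the lowest of them. The log2 fold changes of the other 81 genes spanned -0.66 to 1.15. With each gene divided by its WT mean, the median of the 8 genes was 1.44, 1.62, 1.46, 1.52 and 1.51 in Dp1Tyb replicates 1 to 5 and between 0.962 and 1.05 in the WT cultures. Dp1Tyb replicate 2 had both the highest value of any of the 8 genes, 2.16 for *Cct8*, and the lowest in a Dp1Tyb culture, 1.10 for *Ttc3*. In this culture the 8 genes had a median log2 difference from the WT mean of 0.70, against 0.48 for the other genes of the region.

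**Figure D3:**
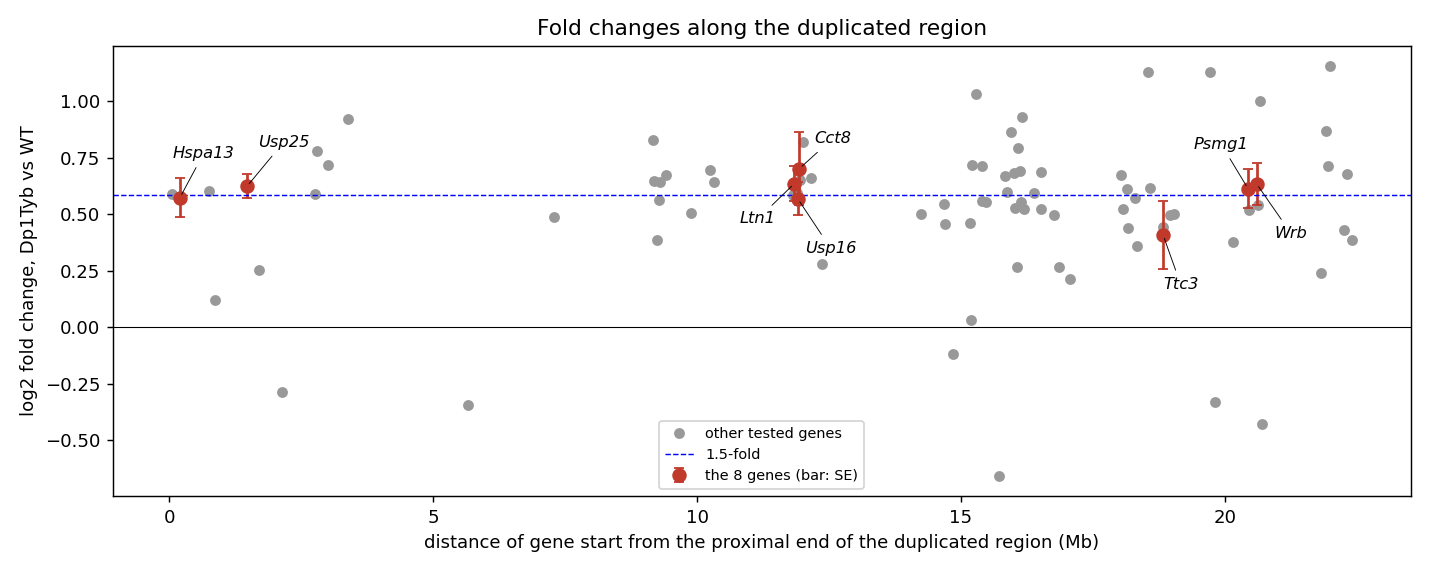
Log2 fold change of Dp1Tyb vs WT (y axis) of the 89 tested genes of the duplicated region by the distance of the gene start from its proximal end in Mb (x axis). Of the 8 genes (red, bar: standard error) *Ttc3* lies below the dashed 1.5-fold line by more than its standard error, and the other 7 lie within theirs of it, from *Hspa13* at 0.205 Mb to *Wrb* at 20.6 Mb.

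The tested neighbours within 5 kb gave a like range of values. *Rwdd2b*, 794 bases from *Ltn1*, differed by 0.59 on the log2 scale (edgeR adjusted p = 0.168). *Pigp*, an enzyme of GPI anchor synthesis that overlaps *Ttc3*, had 0.45 (adjusted p = 0.726). *Brwd1*, 1131 bases from *Psmg1*, had 0.52 (adjusted p = 0.611), and *Lca5l*, 554 bases from *Wrb*, had 0.54 at a mean of 31.1 and 45.2 normalised counts. *B130034C11Rik*, a processed transcript that starts 125 bases from *Cct8* on the other strand, had 0.65 at a mean of 8.77 and 13.9 normalised counts. None of these passed the threshold.

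The genes with values most like each of the 8 over the 9 cultures were found by the root-mean-square difference of centred log2 normalised counts, the 2 nearest for each. Of these 16 places 15 were taken by genes of the duplicated region, which holds 0.611% of the genes tested. This measure includes the difference between the genotypes. *Usp25* was nearest to *Morc3* (0.058) and *Hmgn1* (0.067), *Usp16* to *Morc3* (0.068) and *Mrpl39* (0.072), and *Psmg1* to *Atp5o* (0.046) and *Cbr1* (0.067). *Hspa13* was nearest to *Ltn1* (0.082) and *D16Ertd472e* (0.094), and *Ltn1* to *D16Ertd472e* (0.069) and *Nrip1* (0.071). *Wrb* was nearest to *Rwdd2b* (0.063) and *Atp5j* (0.088). The distances were larger for *Cct8*, nearest to *Cfap298* (0.11) and *Mrpl39* (0.12), and for *Ttc3*, nearest to *Cox17* (0.087) and *Brwd1* (0.11). *Cox17*, which encodes a copper chaperone of cytochrome c oxidase, lies on chromosome 16 outside the region and was the exception among the 16.

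Since 4 of the 8 genes act with partners encoded outside the region, each was set against its partner within the same culture, as a ratio of RPKM values. Scaling between cultures cancels in these ratios. The ratios were added, and the partners named, after the data were seen. The adjustment of p over the 4 ratios does not cover that choice. For *Cct8* the partner was the geometric mean of the other 7 TRiC subunit genes, *Tcp1*, *Cct2*, *Cct3*, *Cct4*, *Cct5*, *Cct6a* and *Cct7*. That mean was 45.7, 64.0, 54.7 and 57.4 RPKM in WT replicates 1 to 4 and 54.2, 81.7, 52.5, 52.6 and 57.4 RPKM in Dp1Tyb replicates 1 to 5. Replicate 2 was again the highest of each genotype, and apart from it the Dp1Tyb values lay within the WT range. The ratio of *Cct8* to the other subunits was 1.59, 1.73, 1.69 and 1.71 in WT and 2.45, 2.48, 2.56, 2.70 and 2.61 in Dp1Tyb replicates in order, so that Dp1Tyb replicate 2 no longer stood apart. The difference was 1.52-fold (log2 difference 0.61, exact permutation test, two-sided, p = 0.0079, adjusted p = 0.0106 over the 4 ratios tested). It was 0.60 within the second set and 0.62 in the first set on the log2 scale, and between 0.58 and 0.62 with each culture left out.

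*Psmg1* relative to *Psmg2*, which encodes the other subunit of its dimer, was 1.12, 1.41, 1.17 and 1.33 in WT replicates 1 to 4 and 1.76, 2.21, 1.85, 2.00 and 1.76 in Dp1Tyb replicates 1 to 5. The ratio was 1.53-fold higher in Dp1Tyb MEFs (exact permutation test, two-sided, p = 0.0079, adjusted p = 0.0106 over the 4 ratios), and the log2 fold change of *Psmg2* itself was 0.0060 (95% interval -0.18 to 0.19). *Wrb* relative to *Caml* was 0.347, 0.308, 0.303 and 0.332 in WT and 0.501, 0.575, 0.487, 0.489 and 0.518 in Dp1Tyb cultures, 1.59-fold higher (exact permutation test, two-sided, p = 0.0079, adjusted p = 0.0106). *Caml* had a log2 fold change of -0.05 (95% interval -0.22 to 0.13). *Ltn1* relative to *Nemf*, which recruits listerin to the ribosome, was 2.18, 1.99, 2.11 and 2.25 in WT and 3.25, 2.45, 3.47, 3.35 and 3.48 in Dp1Tyb cultures, with Dp1Tyb replicate 2 the lowest. It was 1.49-fold higher (exact permutation test, two-sided, p = 0.0159, also after adjustment over the 4 ratios, and p = 0.0571 within the second set). In all 4 ratios the lowest Dp1Tyb culture was above the highest WT culture.

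**Figure D4:**
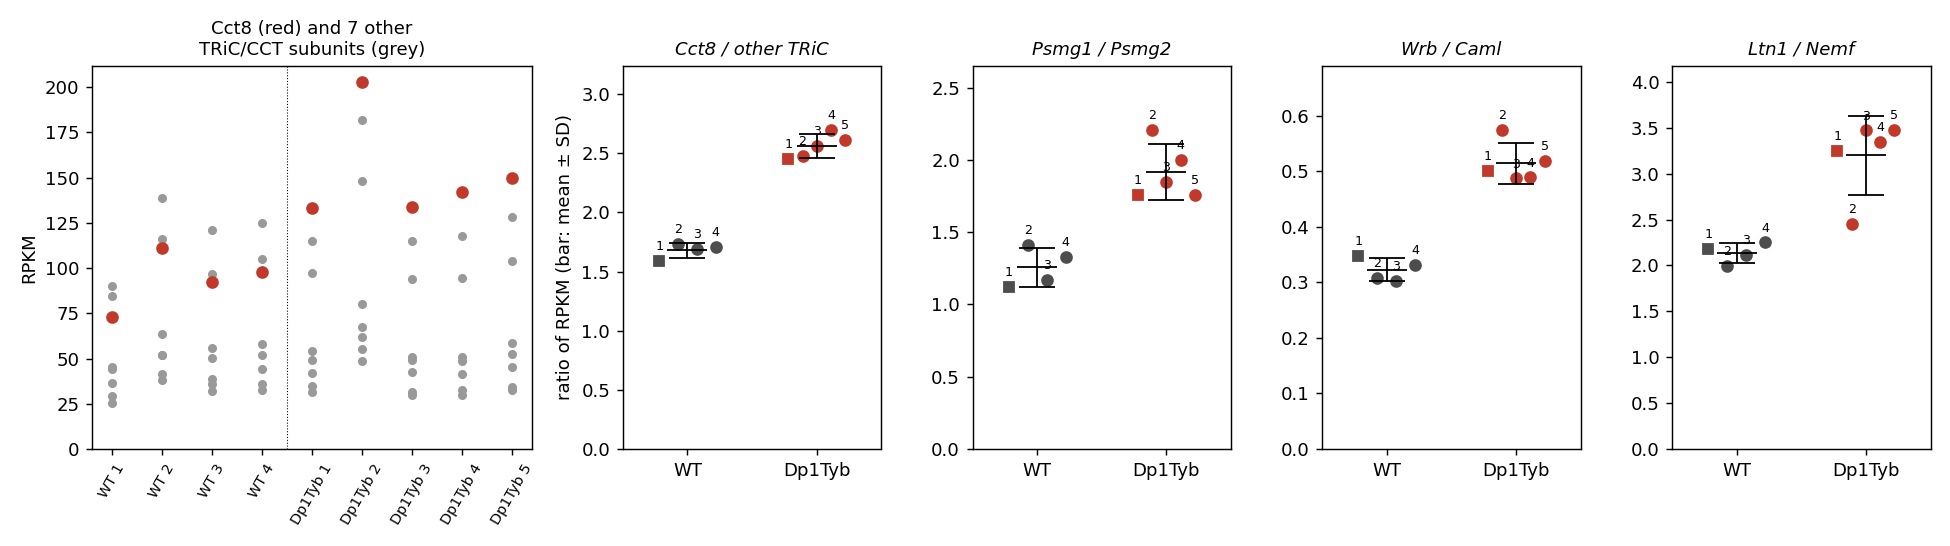
Left, RPKM of *Cct8* (red) and the 7 other TRiC subunit genes (grey) in each culture. Right, ratios of RPKM of *Cct8*, *Psmg1*, *Wrb* and *Ltn1* to their partners by genotype (points: cultures, numbers: replicates, squares: first set, bars: mean ± SD). Dp1Tyb and WT cultures do not overlap in any of the 4 ratios.

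Proteostasis genes outside the duplication were taken in 10 lists. Of their 144 tested genes edgeR called 0 in either direction, against 0.165% of all genes tested, a rate at which so few genes would mostly give no call either. That rate includes the duplicated region, to which most of the 24 genes called belong (6 of the 8 genes and 16 others). An unadjusted p below 0.05 was found for 1 of the 144, against 3.13% of all genes tested, and DESeq2 called 0. The median log2 fold change of a list was between -0.02 (genes of H2A lysine ubiquitination) and 0.10 (TRiC subunits). The 95% interval ended below 1.5-fold for 139 of the 144 genes, against 76.9% of all genes tested. The width of an interval depends on the counts of a gene, for which these groups were not matched.

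Of the 7 other TRiC subunit genes none passed, and their log2 fold changes were between 0.07 and 0.16, the lowest unadjusted p belonging to *Cct6a* (0.16, standard error 0.17) and *Cct2* (0.15, standard error 0.17). Of the 14 genes of the proteasome core, the first by p were *Psma7* (0.11, standard error 0.13) and *Psmb7* (0.09, standard error 0.14). Of the 18 genes of the regulatory particle, which unfolds substrates, they were *Psmc6* (0.11, standard error 0.12) and *Psmd1* (0.11, standard error 0.12). In both, as for TRiC, replicate 2 had the highest summed level of its genotype. The same was true of the lists of proteasome assembly factors, tail-anchored protein insertion, ER chaperones and heat shock proteins. It was not true in WT for ribosome-associated quality control, other ubiquitin-specific proteases or H2A ubiquitination. The genes of the regulatory particle summed to 882 RPKM in WT replicate 2 and 1030 RPKM in Dp1Tyb replicate 2. The other cultures lay between 588 and 762 RPKM. The 7 tested proteasome assembly factors, *Psmg1* not counted, were between -0.20 and 0.09, led by *Psmg3* (-0.20, standard error 0.17) and *Psmg4* (-0.16, standard error 0.17).

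Among 16 genes of ribosome-associated quality control, the lowest p values were those of *Pelo*, a ribosome rescue factor (-0.12, standard error 0.090), and *Ascc2*, part of the complex that splits collided ribosomes (0.10, standard error 0.084). The 6 other genes of tail-anchored protein insertion lay between -0.05 (*Caml*) and 0.08 (*Asna1*, the targeting ATPase). The 24 ER chaperones and genes of the unfolded protein response lay between -0.12 and 0.26. *Atf6* (0.17, standard error 0.093) and *Ern1* (0.11, standard error 0.079), both sensors of ER stress, came first by p.

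The 1 gene with an unadjusted p below 0.05 was *Hspa1b*, which encodes a heat-inducible Hsp70. WT MEFs had 395 ± 67.7 (SD, n = 4) normalised counts of it, and Dp1Tyb MEFs had 507 ± 50.1 (SD, n = 5). Its log2 fold change was 0.36 with a standard error of 0.13, at an edgeR adjusted p of 1.0. For *Hspa1a* the log2 fold change was 0.19 with a standard error of 0.13. Both are uncertain, since the 2 genes are nearly identical and reads that aligned to several places had been discarded. Of 26 other ubiquitin-specific protease genes, *Usp21* (-0.29, standard error 0.13) and *Usp11* (-0.60, standard error 0.34) were first by p. Of the 10 genes that add or remove the H2A mark on which USP16 acts, *Pcgf3* (0.10, standard error 0.072) and *Bmi1* (-0.07, standard error 0.073) were.

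**Figure D5:**
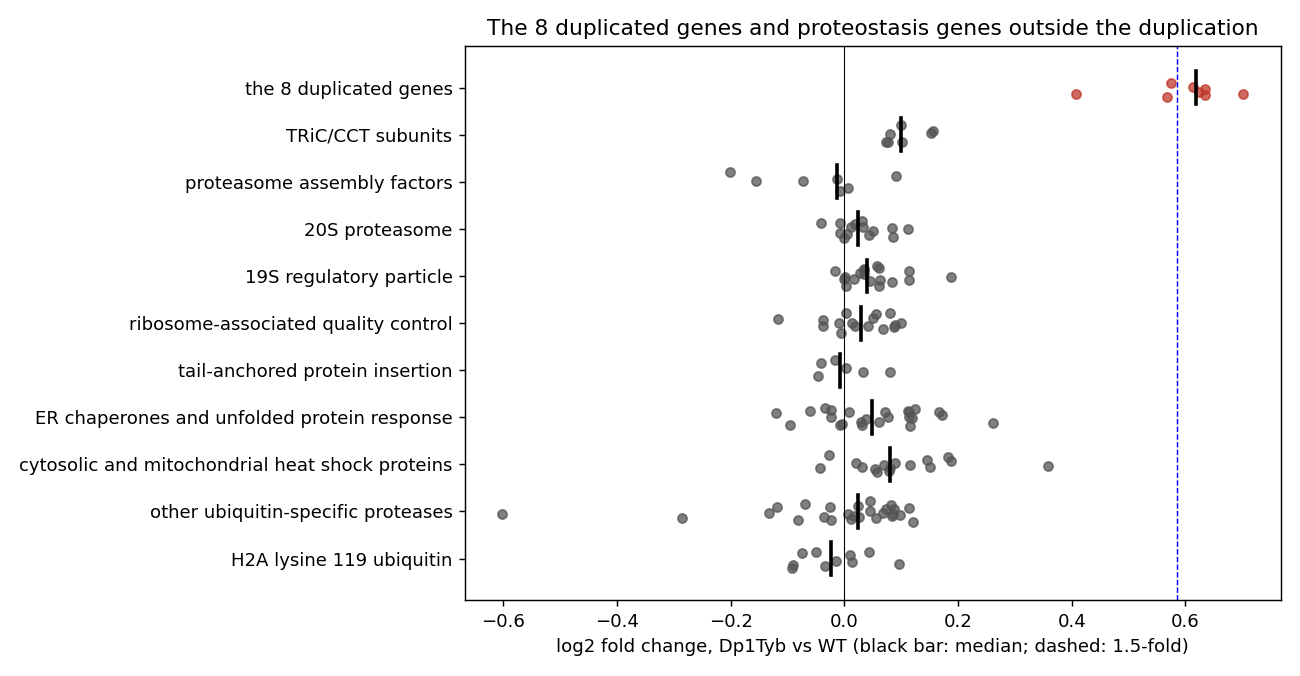
Log2 fold change of Dp1Tyb vs WT (x axis) of the 8 duplicated genes (red) and of 144 proteostasis genes outside the duplication in 10 lists (grey, 1 point per gene). Black bars are medians, 0.62 for the 8 genes and between -0.02 and 0.10 for the lists, and the dashed line is 1.5-fold.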

How the data were processed

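The authors trimmed adapters with Trim Galore, mapped paired-end reads to GRCm38 with TopHat2 2.0.12, discarded reads that aligned to several places and used htseq-count to assign the rest to Ensembl genes. The raw counts they deposited are whole numbers without normalisation. A table of normalised counts and one from DESeq2, with means, fold changes, errors and p-values by the authors, were not used here.

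The members and lists were chosen with earlier results of these data known. Symbols, positions and exon lengths came from GENCODE M21. 1 listed symbol, *Paaf1*, was not matched. Genes were tested with edgeR 4.0.16 in R 4.3.3 (TMM, its filter on low counts, quasi-likelihood test, two-sided, no covariate), with Benjamini-Hochberg adjustment over all genes tested and a threshold of 0.05. Fits were tested on simulated data. Normalised counts are TMM-scaled, and RPKM uses the same scaling. Single values were compared with exact permutation tests over all relabelings of the cultures. The depth was about the same in all cultures. The spread between cultures of a genotype exceeded that expected from counting for each of the 8 genes, except for *Usp25* in Dp1Tyb MEFs (1.23% against 2.46%). Besides the 8 genes, the 2 genes of each list with the lowest p, the 2 nearest in values to each of the 8, and tested neighbours within 5 kb were named. Partners, *Usp28* and *Usp45* were named after their values were seen. Alternatives were other scalings, filters and tests (DESeq2 1.42.0), the culture set, the replicate block and each culture left out. Python 3.11.15 with numpy 2.4.6, pandas 2.3.3 and matplotlib 3.10.9 was used.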

Additional observations from a re-analysis of the deposited data

Results flagged for a closer look

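In Dp1Tyb replicate 2, *Cct8* had 16536 normalised counts, and its gap to the next Dp1Tyb culture was 0.761 of the range of the 5 Dp1Tyb cultures, past Dixon's limit. In the same culture *Ttc3* had 4976 normalised counts, with a gap of 0.776 of the range, below the other Dp1Tyb cultures. These were the 2 values past the limit in 16 groups examined, of which chance gives about 5%. Without Dp1Tyb replicate 2 the log2 fold change was 0.58 for *Cct8* and 0.47 for *Ttc3*, and neither passed the threshold in edgeR. This culture also had the lowest summed level of fibroblast markers, 5090 RPKM, and of macrophage markers, 9.50 RPKM. Its sums of skeletal muscle (153 RPKM), neuronal (6.23 RPKM) and endothelial markers (2.60 RPKM) were the highest. WT replicate 2 stood at the same ends among the WT cultures. Its sums of fibroblast (5870 RPKM) and macrophage markers (37.2 RPKM) were the lowest of them. Those of muscle (42.0 RPKM), neuronal (2.85 RPKM) and endothelial markers (1.86 RPKM) were the highest of them. Of the muscle markers, *Myod1*, *Myog* and *Ckm* had at most 3 counts in any culture. The sums of glial and epithelial markers lay within the range of the other cultures. The part of other cells in these 2 values of *Cct8* and *Ttc3* was not tested.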

How the results depend on the processing

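Every one of the 8 log2 fold changes stayed above 0 under the 17 alternatives, and their median was between 0.60 and 0.63 under other settings and between 0.58 and 0.65 with each culture left out. The number of the 8 genes called, 6 with all cultures, was 4 with the set as a covariate, where *Hspa13* (adjusted p = 0.0815) and *Wrb* (0.0659) were lost, 3 without a filter on low counts, 0 with the second set of cultures alone and 1 to 5 with each culture left out. *Usp25* was called in each fit without 1 culture. The other genes of the region called, 16, became 32 with DESeq2, 1 with the second set alone and 1 to 18 with each culture left out. All genes called, 24, became 68, 1 and 2 to 26. With the set as a covariate, 18 other genes of the region and 24 genes in all were called. Without a filter on low counts these were 11 and 16. With the replicate block edgeR called 0 of the 8, 0 other genes of the region and 0 genes in all, although each of the 8 and 802 genes in all had an unadjusted p below 0.05 and the median of the 8 was 0.62. The deviations of same-numbered cultures correlated at 0.247, 0.732, 0.030 and 0.382 for replicates 1 to 4, so not every pair varied together, and the labels do not say that a number marks a litter or day. Both replicates 1 are also the cultures of the first set. No gene of the lists outside the region was called under any of the 17. The 4 ratios, added after the data were seen, kept an exact permutation p below 0.05 with each culture left out. Since the groups did not overlap in any of the 4, this outcome was fixed in advance and adds no support. The highest counts among the fits without 1 culture, 5, 18 and 26, were those without Dp1Tyb replicate 2. The causes of these differences were not tested.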
